A study of Mus musculus with 62 samples.

Results

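Microglia are the resident macrophages of the brain, and the genes that mark them and that carry innate immune signals were examined here across 5 mouse brain regions after ethanol. The set held 32 of the 56415 genes in the count table and was a list of gene names, chosen with earlier results of these data known. It consisted of 10 genes grouped here as homeostatic microglial markers, 7 complement and phagocytic genes, 5 pattern recognition receptors, 6 signalling genes and 4 cytokines. The 10 include Ptprc, Itgam and Aif1, which were not separated from the others. Male C57BL/6J mice aged 8 to 10 weeks received an intraperitoneal injection of saline or of ethanol at 2 g/kg, either a single time (acute) or once daily for 10 days (chronic), and brains were taken 4 h after the last dose. Bulk RNA-seq was carried out on dorsal and ventral striatum (DS, VS), dorsal and ventral hippocampus (dHPC, vHPC) and cortex (CTX). Every group, saline included, was injected, so that handling and injection were common to saline and ethanol mice. There were 20 groups of 3 or 4 mice, drawn from 16 animals, and 62 libraries.

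In the healthy brain, microglia depend on signalling through the colony-stimulating factor 1 receptor and keep up a homeostatic programme of surface receptors with which they sense nucleotides, fractalkine and lipids. Toll-like receptors (TLRs) recognise microbial or damage-associated molecules, and most of them signal through the adaptor MYD88 to the transcription factor NF-kB, which drives cytokines such as TNF, IL-1beta, IL-6 and CCL2 together with its own inhibitor, IkB-alpha. On activation, microglia commonly lower homeostatic markers and raise phagocytic genes and cytokines, and ethanol has long been studied as a possible trigger of TLR signalling in the brain.

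Library depth ranged from 43173748 to 61873358 assigned counts in CTX and from 44391219 to 71164766 in dHPC. It was lower in vHPC (11421520 to 16574721), DS (8149628 to 46564992) and VS (10142093 to 20428676). CTX and dHPC formed one sequencing batch with a kit that does not keep strand, and vHPC, DS and VS another with a strand-specific kit, so regions were compared only within a batch. In the former batch, reads of a gene and of an overlapping gene on the opposite strand cannot be told apart, which concerns 16 of the members (for example Stat3, Nfkbia, Csf1r, Myd88 and P2ry12). DS chronic saline replicate 2 was empty on chromosomes 7, 8 and 9, on both sex chromosomes and on the mitochondrial one, and had no counts on chromosome 6 beyond position 22875501 (GRCm39). 10 of the 28 members with counts in the other libraries of that comparison were at 0 in it, among them Cx3cr1, Tyrobp and Myd88, so the comparisons used the other 61 libraries.

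The promoters of 5 of the members whose level differed between regions are printed first, as examples from 3 roles (homeostatic, phagocytic and signalling), and were chosen after values were seen. Each run covers 250 bases before and 50 bases after the transcription start, reads 5′ to 3′ on the strand of the gene, and comes from RefSeq on GRCm38.p6, an older build than the GRCm39 of the counts. P2ry12 lies at chr3:59262936-59263235 (minus strand), Cx3cr1 at chr9:120068247-120068546 (minus), Ctss at chr3:95526536-95526835 (plus), Cd68 at chr11:69666121-69666420 (minus) and Myd88 at chr9:119339969-119340268 (minus). Capitals mark matches, on either strand, to 4 motifs: the core bound by the myeloid factor PU.1 (GAGGAAGT), an NF-kB motif (GGG, NN and TTTCC in a row), an interferon-stimulated response element (GAAA, NN and GAAA in a row) and the TATA box (TATAAA), where N is any base.
P2ry12: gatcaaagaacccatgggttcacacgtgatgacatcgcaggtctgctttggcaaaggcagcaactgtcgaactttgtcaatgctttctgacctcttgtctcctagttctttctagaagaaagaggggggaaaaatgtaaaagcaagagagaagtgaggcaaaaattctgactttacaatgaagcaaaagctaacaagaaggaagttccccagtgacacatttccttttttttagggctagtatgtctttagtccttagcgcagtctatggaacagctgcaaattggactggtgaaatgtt
Cx3cr1: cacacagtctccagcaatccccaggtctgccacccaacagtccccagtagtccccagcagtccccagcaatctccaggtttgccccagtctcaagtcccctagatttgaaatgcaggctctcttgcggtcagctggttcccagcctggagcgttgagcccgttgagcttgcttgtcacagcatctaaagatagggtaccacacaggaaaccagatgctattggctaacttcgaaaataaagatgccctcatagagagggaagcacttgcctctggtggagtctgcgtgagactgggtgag
Ctss: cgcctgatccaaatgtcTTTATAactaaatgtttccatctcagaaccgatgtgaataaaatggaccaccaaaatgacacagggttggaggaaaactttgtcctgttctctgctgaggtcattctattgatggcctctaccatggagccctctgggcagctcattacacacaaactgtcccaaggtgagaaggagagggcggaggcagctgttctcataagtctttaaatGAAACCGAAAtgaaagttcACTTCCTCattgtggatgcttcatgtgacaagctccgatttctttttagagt
Cd68: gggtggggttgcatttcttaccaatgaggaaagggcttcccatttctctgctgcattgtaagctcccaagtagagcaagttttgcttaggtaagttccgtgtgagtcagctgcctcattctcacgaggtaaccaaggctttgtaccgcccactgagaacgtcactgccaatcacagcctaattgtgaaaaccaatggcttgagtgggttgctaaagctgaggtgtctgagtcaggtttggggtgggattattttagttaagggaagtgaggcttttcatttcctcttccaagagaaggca
Myd88: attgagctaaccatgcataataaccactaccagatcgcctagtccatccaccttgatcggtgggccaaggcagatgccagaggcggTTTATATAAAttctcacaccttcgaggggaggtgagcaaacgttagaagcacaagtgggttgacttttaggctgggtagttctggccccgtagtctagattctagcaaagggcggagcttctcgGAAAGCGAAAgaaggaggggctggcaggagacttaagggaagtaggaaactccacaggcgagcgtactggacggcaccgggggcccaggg

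Ctss, which encodes the lysosomal protease cathepsin S, held a PU.1 core from -2 to 6 relative to the transcription start on the opposite strand, an interferon-response match from -21 to -12 and a TATA match from -233 to -228. Myd88, the TLR adaptor, held an interferon-response match from -40 to -31 and a pair of overlapping TATA matches on opposite strands (-164 to -159 and -160 to -155). The windows of P2ry12, Cx3cr1 and Cd68 held none of these letters. A promoter entry was found for 21 of the 32 members. The PU.1 core was present in 2 of the 21 (9.52%) against 3.28% of the 27025 mouse promoters in the table, the NF-kB motif in 3 (14.3%; Tlr3, Nfkbia and Il6) against 1.62%, the interferon-response motif in 3 (14.3%; Aif1, Ctss and Myd88) against 3.49%, and the TATA box in 8 (38.1%) against 14.2%. These are matches of letters and not measured binding.

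The members were ranked in saline mice by RPKM, that is, CPM (counts scaled to the total of the library) per kilobase of exon. The order was similar in the 5 regions (plot of saline levels by region). Ctss had the highest mean of the 32 in every region, at 23.0 ± 2.7 RPKM in CTX (SD, n = 6 saline libraries), 30.0 ± 2.4 in dHPC, 28.0 ± 3.2 in vHPC, 36.0 ± 6.2 in VS and 33.9 ± 2.8 in DS (n = 5). Its lead over the next gene was below its own SD in every region but DS, and in CTX C1qa was at 22.8 ± 2.5. In CPM, without division by exon length, Csf1r was above Ctss in every region (73.5 to 88.1 against 31.2 to 48.9). C1qa and C1qb, which encode chains of the complement initiator C1q, followed at 21.0 to 31.9 RPKM. They differed from each other by less than the SD of either gene in vHPC and DS. In CTX and dHPC the difference was below the SD of C1qa but above that of C1qb. Of the homeostatic markers, Csf1r, the receptor of CSF1 and IL-34, was the highest (12.7 to 15.3 RPKM), ahead of the ADP receptor gene P2ry12 (8.24 to 11.6), the fractalkine receptor gene Cx3cr1 (7.81 to 10.8) and Tmem119, a membrane protein gene used as a microglial label (6.25 to 7.92). Ptprc, which encodes CD45 and is low in microglia relative to blood leukocytes, stood at 0.138 to 0.163 RPKM. Its exon length of 18313 bases lowers this value. In CPM it was at 2.5 to 3.0, beside 2.8 to 4.2 for Aif1.

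**Figure D1:**
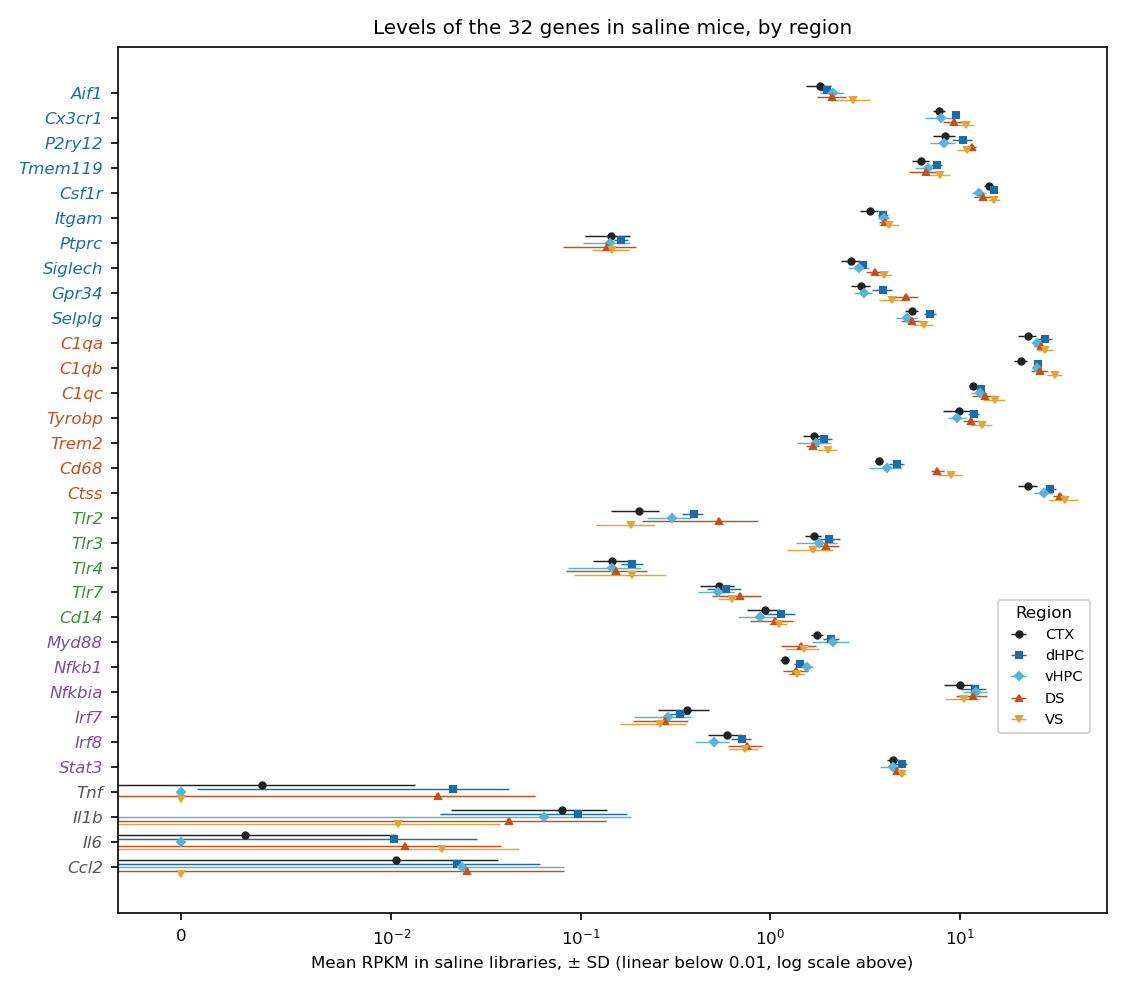
Mean level of each of the 32 members in saline libraries (RPKM, linear below 0.01 and logarithmic above; bars are SD; n = 6 libraries, 5 in DS), with 1 marker per region and gene names coloured by role. Ctss, C1qa and C1qb lie furthest to the right in all 5 regions, and Tnf, Il6 and Ccl2 lie at or near 0.

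Among the signalling members, Nfkbia, the gene of the NF-kB inhibitor IkB-alpha, was the highest (10.0 to 12.2 RPKM), followed by Stat3 at 4.47 to 4.95. This order depends on exon length (1610 bases for Nfkbia and 9527 for Stat3). In CPM Stat3 was the higher gene, at 42.6 to 47.1 against 16.1 to 19.7. Of the TLR genes, Tlr3 stood at 1.69 to 2.05 RPKM and Tlr7 at 0.529 to 0.691. Tlr4, the receptor gene for lipopolysaccharide, had 0.147 to 0.187 RPKM and Tlr2, which recognises bacterial lipoproteins, 0.184 to 0.539. The cytokines lay at the floor of detection. Tnf had no count in 51 of the 61 libraries and at most 4 in any, Il6 none in 46 and at most 6, and Ccl2 none in 41 and at most 6. Il1b had no count in 28 libraries and at most 20. Tnf, Il6 and Ccl2 were therefore too low to be tested in any comparison, and Il1b could be tested only in CTX and dHPC. The 10 homeostatic markers had counts in each of the 61 libraries. As a check of the labelled regions, striatal projection neuron markers summed to 2014 to 3069 CPM in the DS and 1487 to 2775 CPM in the VS saline libraries, against 105 to 166 in CTX and 61.9 to 183 in vHPC. In dHPC they ran from 81.2 to 1295 CPM, so at least 1 dHPC saline library held far more of them than CTX.

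To find out whether ethanol altered these genes, ethanol and saline libraries were compared in each region and paradigm (edgeR quasi-likelihood test, with p-values adjusted over all genes tested and a false discovery rate threshold of 0.1). No member passed in any of the 10 comparisons. There were 284 tests of members, and 0 passed with edgeR. With DESeq2 0 passed as well, but it set an adjusted value for only part of them. In vHPC acute it did so for 20 of 28 members, and in VS acute for 28 of 28. At an unadjusted p below 0.05 there were 19 (6.69% of the 284). The share of all genes at that threshold was 12.5% in CTX acute, 7.88% in dHPC acute, 11.9% in vHPC acute, 15.5% in DS acute and 7.32% in VS acute, and 10.4%, 8.23%, 9.51%, 7.53% and 9.95% in the chronic comparisons of these regions in the same order. The members at that threshold were 1 of 29, 3 of 29, 2 of 28, 1 of 28 and 2 of 28 in the acute comparisons of CTX, dHPC, vHPC, DS and VS, and 1 of 29, 2 of 29, 1 of 28, 5 of 28 and 1 of 28 in the chronic ones. The 95% confidence interval of the fold change lay within 2-fold in either direction for 241 of the tests (84.9%) and within 0.5 on the log2 scale for 155 (54.6%), so that for most of these genes larger differences lay outside the interval. In bulk tissue, a change in the number of microglia and a change in RNA per cell cannot be told apart.

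Of all genes tested, edgeR called 1.99% in CTX acute, 0.042% in dHPC acute, 0% in vHPC acute, 5.15% in DS acute and 0.0399% in VS acute. After chronic ethanol it called 0.0555% in vHPC and 0% in the other 4 regions. DESeq2 called 3.69%, 1.07%, 2.9%, 6.4% and 0.889% in the acute comparisons of CTX, dHPC, vHPC, DS and VS, and 0.608%, 0.859%, 1.08%, 0.776% and 1.79% in the chronic ones. In CTX acute, 23 of 29 tested members had a lower mean in ethanol mice, with a median log2 fold change of -0.11 against 0.00 over all genes tested, and the smallest adjusted p was 0.273 (Cx3cr1). In VS acute, 20 of 28 were higher, with a median of 0.12 against 0.01 over all genes, and the smallest adjusted p was 0.534 (C1qa). In vHPC acute, 21 of 28 were higher (median 0.06), and the smallest adjusted p was 0.257 (Csf1r). In the other 7 comparisons 14 to 19 members were higher and 10 to 15 lower, with smallest adjusted p-values from 0.281 to 0.585 (edgeR). In these and later counts of direction, the members share the same libraries and are not independent.

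**Figure D2:**
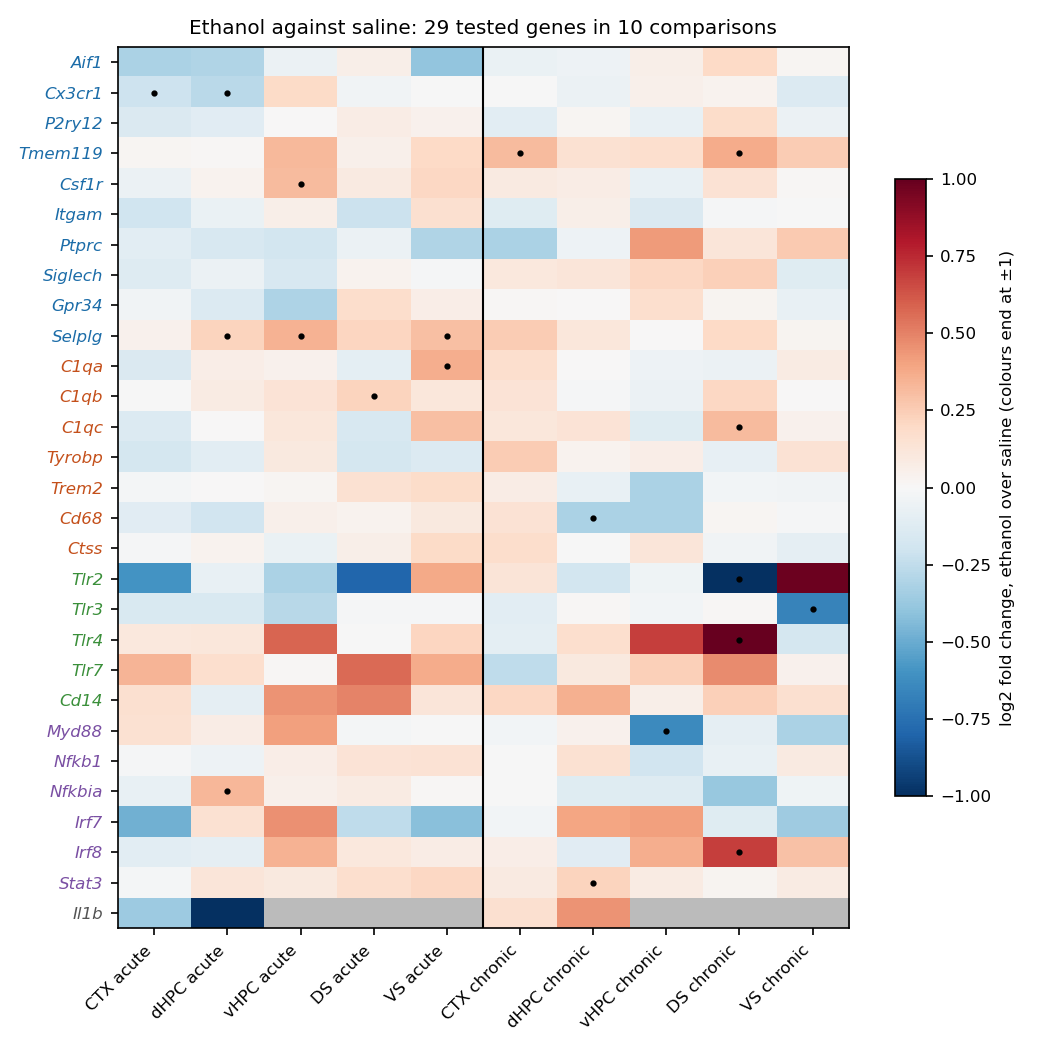
Log2 fold change of ethanol over saline for the 29 members that could be tested (rows, coloured by role) in the 10 comparisons (columns, acute left of the line and chronic right), with colours ending at ±1. No cell passed the false discovery rate threshold of 0.1, and the strongest colours fall on low genes such as Tlr2, Tlr4 and Il1b.

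Homeostatic markers were neither called lower nor called higher by ethanol in any region. P2ry12 had log2 fold changes of -0.14 to 0.18 over the 10 comparisons, and its 95% intervals reached from -0.42 to 0.45 at the widest. Aif1, which encodes IBA1, ranged from -0.40 to 0.20, Itgam (CD11b) from -0.21 to 0.16 and Siglech, a sialic acid-binding lectin gene, from -0.16 to 0.24. Ptprc ranged from -0.32 to 0.42 and Gpr34, a receptor gene for lysophosphatidylserine, from -0.31 to 0.18. None of these 6 genes had an unadjusted p below 0.05 in any region.

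Cx3cr1 differed in sign between regions. In CTX acute it was at 31.2, 35.3 and 35.6 CPM in saline mice and 28.0, 29.01 and 31.8 CPM in ethanol mice, groups that overlapped, with a log2 fold change of -0.20 ± 0.08 (SE; adjusted p = 0.273, edgeR). In dHPC acute the saline libraries held 41.2, 41.9 and 42.2 CPM and the ethanol libraries 27.8, 32.1, 36.8 and 42.1 (log2 fold change -0.27 ± 0.11, adjusted p = 0.604, edgeR). In vHPC acute the fold change was above 0 at 0.19 ± 0.14, and in the other 7 comparisons it lay between -0.14 and 0.05. The signs thus differed by region with no call in any.

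Tmem119 and Selplg, the latter encoding the adhesion ligand PSGL-1, had a fold change above 0 in 10 of 10 comparisons, with no adjusted p below the threshold. For Tmem119 the log2 fold changes ran from 0.01 to 0.37 with a median of 0.18. In DS chronic it was at 12.8 and 13.6 CPM in the 2 saline libraries and 14.3, 17.5, 18.3 and 18.4 in the ethanol libraries (0.37 ± 0.16, adjusted p = 0.659, edgeR). In CTX chronic the saline libraries held 12.3, 13.3 and 14.99 CPM and the ethanol libraries 15.4, 15.5 and 19.5 (0.31 ± 0.13, adjusted p = 0.458, edgeR). Saline and ethanol libraries did not overlap in 4 of the 10 comparisons. DS chronic was among these only without its truncated library, which on chromosomes with intact counts held 23.4 CPM of Tmem119, within the 21.7 to 27.3 CPM of the ethanol libraries on that scale. For Selplg the log2 fold changes ran from 0.01 to 0.35 with a median of 0.21, and groups did not overlap in 3 comparisons. In vHPC acute its saline libraries held 19.7, 22.9 and 22.9 CPM and its ethanol libraries 24.8, 27.7 and 31.0 (0.35 ± 0.12, adjusted p = 0.340, edgeR). These 2 genes were picked out after their values were seen, and the regions came in part from the same mice, so the 10 comparisons are not independent. Over all members, groups did not overlap in 38 of the 284 tests (13.4%), where the share of all genes tested was 17.6%, 8.16%, 18%, 21.4% and 12.5% in the acute comparisons of CTX, dHPC, vHPC, DS and VS and 18.2%, 14%, 14.7%, 17.4% and 16.1% in the chronic ones.

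The summed CPM of the 10 homeostatic markers gave one level per library. In CTX acute it was 212 ± 6 in saline (207 to 219) and 199.9 ± 4.2 in ethanol (198 to 205) mice, and these libraries did not overlap. In vHPC acute the order was the opposite, at 199.6 ± 15.1 in saline (184 to 214) and 229 ± 11 in ethanol (219 to 241) mice, again with no overlap. Csf1r weighs most in the sum, and its mean went from 69.5 to 86.6 CPM there. Of the 10 markers, 6 were higher and 4 lower in vHPC acute, with a median log2 fold change of 0.03. In CTX acute 2 were higher and 8 lower (median -0.12). In DS chronic the 2 saline libraries were at 232 and 256 and the 4 ethanol libraries at 259 to 285. The truncated saline library has no such sum, as Cx3cr1, Itgam, Siglech and Gpr34 had no counts in it. On intact chromosomes its P2ry12 was at 62.4 CPM, above the 47.9 to 56.4 CPM of the ethanol libraries. Its Csf1r and Selplg lay below theirs (115.6 against 117.4 to 132.1 and 34.02 against 36.45 to 44.17). Its Tmem119, Aif1 and Ptprc lay within theirs, so whether the groups separate with it cannot be told. The groups overlapped in the other 7 comparisons, so that no common direction was present, and the sum was not tested. In CTX acute, markers of border macrophages also moved, with a summed level of 9.55 to 12.2 CPM in saline and 5.47 to 8.28 CPM in ethanol mice. Of their 7 genes, 7 had lower means and 1 passed (Mrc1, log2 fold change -0.72 ± 0.16, adjusted p = 0.0529, edgeR). Endothelial markers went from 169 to 177 CPM in saline to 147 to 156 CPM in ethanol mice. The part of these cells in the lower microglial values of CTX acute was not tested. In vHPC acute the border macrophage markers went from 6.39 to 9.13 CPM in saline to 2.93 to 6.09 CPM in ethanol mice, without overlap and opposite to the microglial sum, and their part was not tested.

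**Figure D3:**
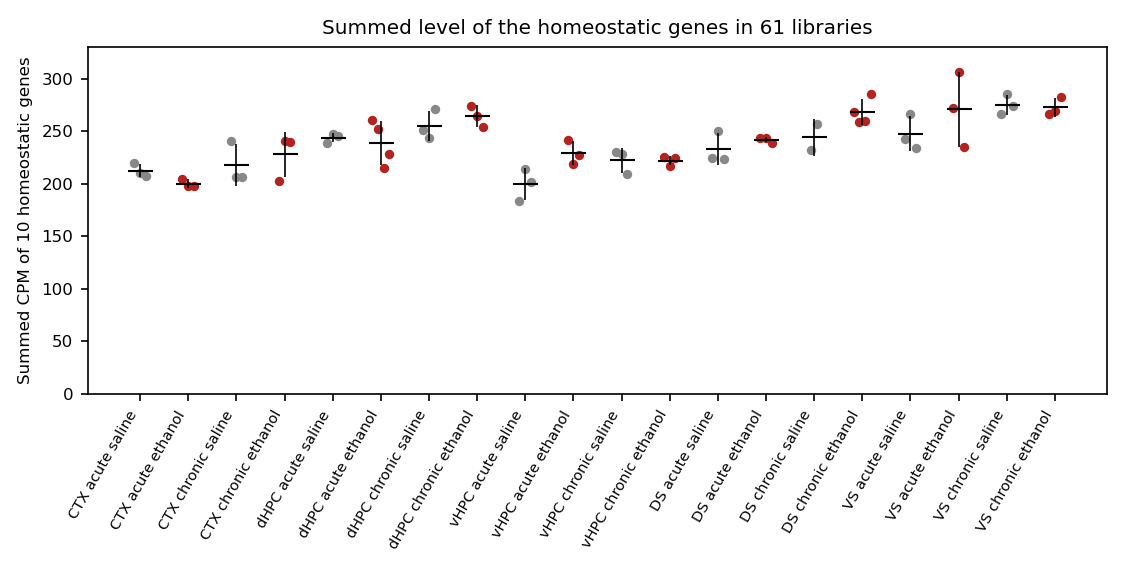
Summed CPM of the 10 homeostatic markers in 61 libraries (points; bars are mean ± SD), by region, paradigm and treatment. Saline and ethanol points separate in CTX acute (ethanol lower), vHPC acute and DS chronic (ethanol higher) and overlap elsewhere. DS chronic has 2 saline points, without the truncated library.

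Complement and phagocytic genes had no call either. All 7 were lower in CTX acute and all 7 higher in CTX chronic, with no unadjusted p below 0.05 among these 14 tests. The 7 genes were measured in the same libraries, so their directions are not independent. Their summed level in CTX chronic was 107.4, 113.9 and 132.7 CPM in saline and 108.6, 142.0 and 142.2 CPM in ethanol libraries, which overlapped. C1qa ranged from -0.14 to 0.36 over the 10 comparisons, the top value being VS acute, in which the saline libraries held 26.0, 27.4 and 30.9 CPM and the ethanol libraries 33.7, 34.4 and 40.2. These groups did not overlap (log2 fold change 0.36 ± 0.12, adjusted p = 0.534, edgeR). Pallial excitatory neuron markers were at 331 to 817 CPM in these saline and 15.1 to 121 CPM in these ethanol libraries, also without overlap, and their part was not tested. C1qb ranged from -0.06 to 0.22 and C1qc from -0.16 to 0.32. Trem2, a lipid-sensing receptor gene of phagocytic microglia, ranged from -0.31 to 0.19, and Tyrobp, which encodes its adaptor DAP12, from -0.17 to 0.26. Ctss ranged from -0.09 to 0.19 and Cd68, a lysosomal membrane protein gene, from -0.32 to 0.14. Cd68 in dHPC chronic was at 5.65, 6.35 and 6.72 CPM in saline and 4.48, 5.14 and 5.40 CPM in ethanol mice, without overlap (-0.32 ± 0.13, adjusted p = 0.589, edgeR). Myelin markers there went from 6309 to 7344 CPM in saline to 5031 to 5773 CPM in ethanol mice, and striatal projection neuron markers were at 81.2 to 1295 against 71.6 to 134 CPM. Their part was not tested.

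Among the pattern recognition receptors, Tlr2 and Tlr4 had few counts and wide intervals. Tlr4 ranged from -0.18 to 1.21 and Tlr2 from -1.28 to 0.98 on the log2 scale. In DS chronic these 2 genes had opposite signs. Tlr2 was at 2.61 and 2.79 CPM in the 2 saline libraries and 0.503, 0.585, 1.17 and 2.08 in the 4 ethanol libraries (-1.28 ± 0.56, adjusted p = 0.661, edgeR). Tlr4 was at 0.557 and 0.869 CPM in saline and 1.17, 1.47, 1.76 and 2.35 CPM in ethanol libraries (1.21 ± 0.51, adjusted p = 0.645, edgeR). Neither pair of groups overlapped, and the saline values rest on 2 libraries. The truncated library, scaled to chromosomes with intact counts, held 1.48 CPM of Tlr2 (12 counts), within the 0.717 to 3.15 CPM of the ethanol libraries on that scale, so the groups overlapped for Tlr2 with it. Its Tlr4 was at 0.740 CPM, below the 1.74 to 3.35 CPM of the ethanol libraries. With that library put back, the smallest adjusted p of a member in DS chronic was 0.969 (Ptprc, edgeR). Choroid plexus markers overlapped, at 1938 and 7230 CPM in the 2 saline libraries and 22.0 to 3112 in the ethanol libraries, whereas pallial excitatory neuron markers were apart, at 404 to 571 CPM against 17.95 to 148. Their part in the DS values was not tested.

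Tlr3, the receptor gene for viral dsRNA, was at 8.49, 10.7 and 12.3 CPM in VS chronic saline mice and at 6.15, 6.55 and 7.12 CPM in ethanol mice, without overlap. Its log2 fold change was -0.67 ± 0.19 (95% interval -1.10 to -0.23, adjusted p = 0.337, edgeR; 0.137, DESeq2), the smallest adjusted p of a member in this comparison. Pallial neuron markers were at 55.4 to 709 CPM in these saline and 10.95 to 69.98 CPM in these ethanol libraries, and their part was not tested. Over the 10 comparisons Tlr3 was lower in 8, whereas Tlr7, the receptor gene for ssRNA, and Cd14, a co-receptor gene of TLR4, were higher in 9 each. Tlr7 ranged from -0.25 to 0.57 and Cd14 from -0.09 to 0.50, none with an unadjusted p below 0.05.

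The signalling genes had no call. Nfkb1, which encodes the p50 precursor, ranged from -0.19 to 0.15, and its intervals did not extend beyond -0.54 and 0.48. Nfkbia, a target of NF-kB, ranged from -0.38 (DS chronic) to 0.33 (dHPC acute). In dHPC acute it was at 14.9, 19.4 and 22.0 CPM in saline and 18.03, 23.5, 25.8 and 27.1 CPM in ethanol mice, which overlapped (0.33 ± 0.15, adjusted p = 0.631, edgeR). Stat3, which transmits IL-6-type signals, was higher in 9 of 10 comparisons by at most 0.22 (dHPC chronic, 43.0, 44.6 and 45.4 CPM in saline against 48.5, 51.7 and 54.6 in ethanol mice, adjusted p = 0.566, edgeR). The interferon regulator genes Irf7 and Irf8 ranged from -0.48 to 0.46 and from -0.11 to 0.69. For Irf7 the 95% intervals extended as far as -2.65 and 2.27, and it had at most 209 counts in any library.

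Cytokine genes gave almost no reads. Il1b had 14, 13 and 3 counts in CTX acute saline libraries against 8, 4 and 11 in ethanol libraries, and 0, 6 and 13 against 2, 6 and 12 in CTX chronic. In dHPC acute it had 20, 6 and 4 counts in saline and 6, 0, 4 and 2 in ethanol libraries, a log2 fold change of -1.48 with an interval from -3.28 to 0.31. In dHPC chronic it had 2, 6 and 18 against 12, 14 and 14 counts. No interval of Il1b in CTX or dHPC lay within 2-fold. Tnf, Il6 and Ccl2 were not tested in any comparison, nor Il1b in vHPC, DS and VS, so these data set no limit on their change there.

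Whether the effect of ethanol depended on the paradigm was tested with an interaction term in each region (chronic minus acute difference). Of 142 tests of members, 0 passed with edgeR, 4 had an unadjusted p below 0.05 and 1 passed with DESeq2. In vHPC, DESeq2 set an adjusted value for 13 of 28 members. Over all genes edgeR called 0% in each of the 5 regions, and DESeq2 called 0.0791% in CTX, 0.00745% in the dorsal and 2.02% in the ventral hippocampus, 0.019% in DS and 0.0191% in VS. At an unadjusted p below 0.05 the shares were 8.19%, 4.48%, 11.5%, 4.16% and 4.62%. The gene called with DESeq2 alone was Csf1r in vHPC, and Myd88 in vHPC had the smallest unadjusted p of all members.

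In vHPC, Csf1r held 63.5, 71.0 and 74.0 CPM in acute saline libraries and 83.4, 85.4 and 90.9 CPM in acute ethanol libraries. In the chronic paradigm it held 74.4, 77.7 and 80.3 CPM in saline and 71.4, 72.7 and 76.0 CPM in ethanol libraries. The acute groups did not overlap and the chronic groups did. The acute difference was 0.32 ± 0.09 (log2; adjusted p = 0.257 with edgeR and 0.106 with DESeq2) and the chronic one -0.08 ± 0.09. The interaction was -0.40 ± 0.12 (95% interval -0.65 to -0.14), with an adjusted p of 0.301 with edgeR and 0.0740 with DESeq2. Leaving out each library in turn gave -0.33 to -0.44, with adjusted p-values from 0.109 to 0.599 (edgeR).

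Myd88 in vHPC held 4.03, 4.65 and 4.79 CPM in acute saline and 5.47, 5.99 and 6.39 CPM in acute ethanol libraries, but 5.98, 6.69 and 6.88 CPM in chronic saline and 3.79, 4.02 and 4.75 CPM in chronic ethanol libraries. Within each paradigm the groups were apart, in opposite directions. The acute difference was 0.41 ± 0.20 and the chronic one -0.64 ± 0.21 (adjusted p = 0.420, edgeR). The interaction was -1.04 ± 0.26 (95% interval -1.61 to -0.48, adjusted p = 0.289, edgeR), and DESeq2 set no adjusted value. The 2 saline groups were themselves apart, at 4.49 ± 0.40 and 6.52 ± 0.48 CPM. Choroid plexus markers were at 26.6 to 207 CPM in the chronic saline and 911 to 3223 CPM in the chronic ethanol libraries of vHPC, endothelial markers at 142 to 164 against 125 to 127, and border macrophage markers in the acute paradigm at 6.39 to 9.13 against 2.93 to 6.09. Red blood cell markers in the acute paradigm overlapped (582 to 1628 and 463 to 773 CPM). The part of these tissues in the Csf1r and Myd88 values was not tested.

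**Figure D4:**
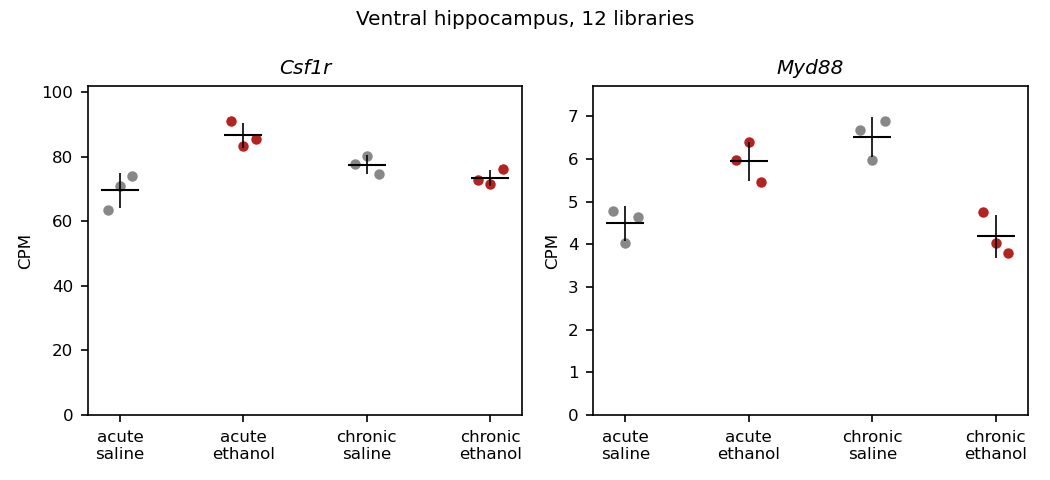
CPM of Csf1r (left) and Myd88 (right) in the 12 vHPC libraries (points, saline grey and ethanol red; bars are mean ± SD, n = 3 per group; axes start at 0). Ethanol points lie above saline points in the acute paradigm for both genes, and below them for Myd88 in the chronic paradigm.

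The other members with an unadjusted p below 0.05 for the interaction were C1qc in DS and Tlr3 in VS. C1qc was at 26.9, 28.2 and 31.7 CPM in DS acute saline libraries and 23.8, 26.7 and 27.3 in acute ethanol libraries, against 21.8 and 23.3 in chronic saline and 26.7, 27.8, 28.2 and 30.4 in chronic ethanol libraries. Its interaction was 0.48 ± 0.15 (adjusted p = 0.973, edgeR). The truncated DS chronic saline library, left out here, held 46.3 CPM of C1qc on intact chromosomes, above the 39.9 to 43.9 CPM of the chronic ethanol libraries on that scale. For Tlr3 in VS it was -0.66 ± 0.27 (adjusted p = 0.997, edgeR). The members' interaction values leaned below 0 in VS (20 of 28, median -0.12 against -0.0007 over all genes) and vHPC (18 of 28, median -0.09 against 0.01). They leaned above 0 in CTX (24 of 29, median 0.14 against -0.02) and dHPC (18 of 29, median 0.11 against -0.02). In DS 15 of 28 were above 0 (median 0.03 against 0.002).

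Related genes outside the set showed where calls did occur. Of 17 other microglial genes, such as P2ry13 and the transcription factor gene Sall1, 0 were called with edgeR in any of the 10 ethanol comparisons, 0 to 3 per comparison had an unadjusted p below 0.05, and DESeq2 called 2 in vHPC acute. In CTX acute, where 1.99% of all genes were called, 2 of 22 interferon and STAT genes fell, Socs3, a feedback inhibitor of STAT3 signalling (-0.88 ± 0.17, adjusted p = 0.0340, edgeR), and the interferon-induced Oasl2 (-0.76 ± 0.19, adjusted p = 0.0893, edgeR). Of 20 other cytokine and chemokine genes tested there, the chemokine gene Cxcl12 fell (-0.48 ± 0.07, 45.4 ± 1.7 to 32.6 ± 2.2 CPM, n = 3 each, adjusted p = 0.0103, edgeR), and the alarmin gene Il33 rose (0.46 ± 0.08, 22.7 ± 1.3 to 31.2 ± 3.1 CPM, adjusted p = 0.0291, edgeR). Serping1, a C1 inhibitor gene, fell as 1 of 11 complement genes, and Apoe as 1 of 14 disease-associated genes. As background, Cxcl12 is produced by endothelial and stromal cells, Il33 largely by oligodendrocytes and astrocytes, and Apoe mostly by astrocytes. Vascular and meningeal fibroblast markers were at 77.4 to 89.7 CPM in the saline and 54.8 to 64.5 CPM in the ethanol libraries of CTX acute, and myelin markers at 1836 to 2082 against 2151 to 2868 CPM. The part of these cells was not tested.

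In DS acute, where 5.15% of all genes were called, 1 of 32 other TLR and NF-kB genes rose, Cyld, a deubiquitinase gene that limits NF-kB (0.35 ± 0.07, adjusted p = 0.00884, edgeR). Cxcl12 fell there too (-0.46 ± 0.10, adjusted p = 0.0179, edgeR), and the lipoprotein lipase gene Lpl rose (0.55 ± 0.09, adjusted p = 0.00301, edgeR). Pallial excitatory neuron markers were at 374 to 469 CPM in these saline and 15.4 to 98.1 CPM in these ethanol libraries, and their part was not tested. In the other 8 ethanol comparisons and in the 5 interaction tests, none of the genes of these 6 lists was called with edgeR. The 2 microglial genes called with DESeq2 alone in vHPC acute were Mertk, a phagocytic receptor gene, and Inpp5d, a lipid phosphatase gene (0.54 ± 0.18 and 0.66 ± 0.22). DESeq2 alone also called genes of the other lists, namely Nfkb2, Ifit1, Tgfb1 and Cx3cl1 in CTX acute, Il1r1, Cx3cl1 and Spp1 in vHPC acute, Traf3 in DS acute, Apoe in VS acute (log2 fold change 0.41, opposite in sign to CTX acute), Il1r1 in dHPC chronic, Il1rap in VS chronic and Cx3cl1 for the vHPC interaction.

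Between regions, members did pass the test, as did a large part of all genes tested. dHPC was compared with CTX, and vHPC with VS and DS, in pooled acute and chronic saline libraries (6 per region, 5 in DS) with the paradigm as a covariate. The last 2 comparisons share the vHPC libraries, and both share libraries with the comparison of DS with VS. In dHPC, 16 of 29 members were higher than in CTX and 0 were lower, against 28.9% of all genes higher and 26.4% lower (55.3% called in all). The share of members called was thus about that of all genes, while the called members shared a direction. Many of them mark microglia and all were measured in the same libraries, so the 16 are not independent observations. The median log2 difference was 0.22, against 0.01 over all genes. Most of these differences were small, between 0.09 and 0.33. They covered 6 of 10 homeostatic, 5 of 7 complement and phagocytic, 2 of 5 receptor and 3 of 6 signalling genes, and each of the 16 was higher in 4 of the 4 mice with both regions sampled.

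Tlr2 differed most between dHPC and CTX, with a low, median and high of 0.920, 1.17 and 1.34 CPM in dHPC and 0.348, 0.630 and 0.863 CPM in CTX. These ranges did not overlap (log2 difference 0.92 ± 0.20, adjusted p = 0.00129, edgeR). Ctss was next, at 37.8, 39.3 and 46.6 CPM in dHPC and 28.2, 31.1 and 38.2 CPM in CTX (0.33 ± 0.07, adjusted p = 0.00179, edgeR), and the ranges met only at their ends. Cx3cr1 was at 42.4 ± 1.9 CPM in dHPC and 35.9 ± 2.7 in CTX, again without overlap (0.24 ± 0.05, adjusted p = 0.000865, edgeR). Choroid plexus markers were at 2093 to 3401 CPM in the dHPC acute and 41.2 to 2797 CPM in the dHPC chronic saline libraries, but at 10.3 to 128 CPM in the CTX saline libraries, and their part was not tested. Border macrophage markers were at 5.22 to 7.44 CPM in dHPC and at 7.03 to 13.5 CPM in CTX.

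In vHPC, by contrast, most of the called members were lower than in VS. Of 28 tested, 11 were lower and 2 higher, against 20.2% and 18.9% of all genes. The share called in either direction was somewhat above that of all genes. The median log2 difference was -0.21, against -0.04 over all genes. The lower members were 6 homeostatic markers (Cx3cr1, P2ry12, Csf1r, Siglech, Gpr34 and Selplg), 4 complement and phagocytic genes (C1qb, Tyrobp, Cd68 and Ctss) and Irf8, a transcription factor gene of the myeloid lineage. Cd68 stood out, at 3.64, 5.32 and 6.59 CPM (low, median, high) in vHPC and 9.03, 10.9 and 13.3 CPM in VS, with no overlap and lower in vHPC in 5 of 5 mice (-1.07 ± 0.15, adjusted p = 7.98e-05, edgeR). Irf8 was at 2.90, 3.44 and 4.94 CPM in vHPC and 3.69, 5.24 and 5.95 CPM in VS (-0.50 ± 0.18, adjusted p = 0.0454, edgeR). Tmem119, Itgam, Aif1 and Ptprc, the other 4 homeostatic markers, were not called.

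The higher members in vHPC were both of the signalling group. Myd88 was at 4.11, 5.46 and 6.98 CPM in vHPC and 2.60, 3.73 and 4.83 CPM in VS, and was higher in 5 of 5 mice (0.54 ± 0.17, adjusted p = 0.0234, edgeR). Nfkb1 was at 17.1, 19.3 and 20.9 against 13.2, 16.8 and 18.1 CPM (0.22 ± 0.09, adjusted p = 0.0652, edgeR), in 4 of 5 mice.

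Against DS, 8 of 28 members were lower in vHPC and 1 higher, beside 19.9% and 21.6% of all genes. The share called in either direction was here below that of all genes. Cd68 was at 3.56, 5.20 and 6.46 CPM in vHPC and 8.74, 9.94 and 10.5 CPM in DS, without overlap (-0.92 ± 0.16, adjusted p = 0.000620, edgeR). Gpr34 was at 5.34, 6.69 and 7.12 CPM against 8.92, 11.8 and 12.6 CPM, and P2ry12 at 18.2, 19.8 and 26.7 CPM against 27.7, 29.7 and 32.4 CPM, both without overlap and lower in 5 of 5 mice (-0.75 ± 0.14, adjusted p = 0.00105, and -0.53 ± 0.09, adjusted p = 0.000484, edgeR). Myd88 was the higher gene (0.49 ± 0.20, adjusted p = 0.0749, edgeR). Tlr2 was lower at -0.79 ± 0.34 (adjusted p = 0.0888, edgeR). With the mouse as a replicate block, 5 members were called in place of 9.

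DS and VS differed in 1 of 28 members, where 9.88% of all genes were called. Tlr2 was higher in DS (1.55 ± 0.41, adjusted p = 0.0433, edgeR). Its level was split by paradigm. The DS chronic saline libraries held 2.61 and 2.79 CPM and the acute ones 0.715, 0.999 and 1.01, against 0.340 to 0.870 CPM in the 6 VS saline libraries. Without DS chronic saline replicate 6 the call was lost, and with the mouse as a replicate block 2 members were called. The choroid plexus markers of those DS chronic saline libraries, at 1938 and 7230 CPM, were above the 23.4 to 297 CPM of the DS acute saline libraries, and their part in the Tlr2 value was not tested.

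Genes of the same pathways outside the set were placed beside these members. Of 17 other microglial genes, 9 were higher and 2 lower in dHPC than in CTX, 0 were higher and 6 lower in vHPC than in VS, and 0 were higher and 7 lower in vHPC than in DS. Interferon and STAT genes did not follow the microglial markers, with 8 higher and 1 lower of 21 in vHPC against VS and 8 higher and 1 lower of 22 against DS. Of 33 other TLR and NF-kB genes, 5 were higher and 4 lower against VS, and 4 higher and 5 lower against DS. These counts stand beside the shares of all genes given above and were not tested as lists.

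**Figure D5:**
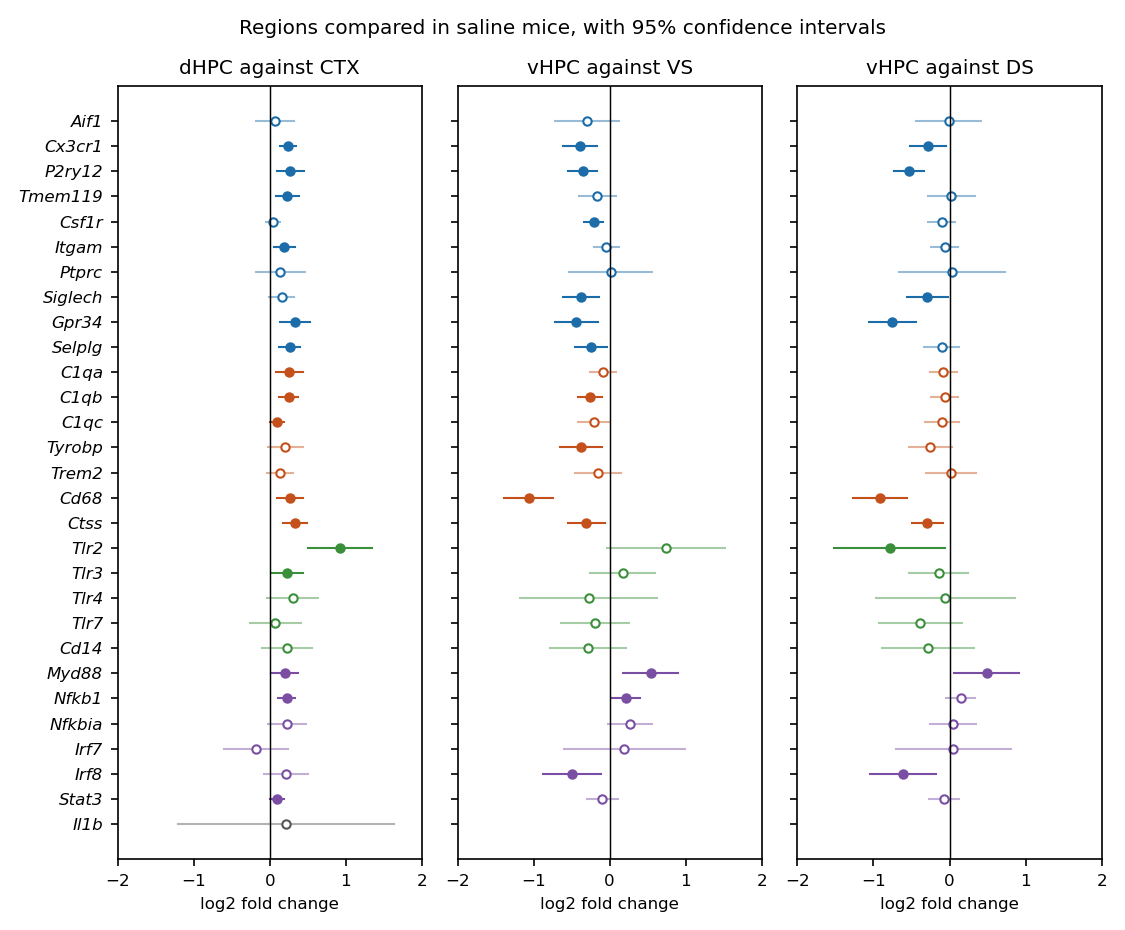
Log2 differences between regions in saline mice for the tested members (points; bars are 95% confidence intervals; called members filled), with the region named first as the numerator and 6 libraries per region (5 in DS). Nearly all points lie above 0 for dHPC against CTX, and most lie below 0 for vHPC against VS and DS with Cd68 furthest to the left among the called members and Myd88 the rightmost called member.

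Across settings, 12 of the 16 calls for dHPC against CTX, 8 of the 13 for vHPC against VS and 4 of the 9 for vHPC against DS were made under every alternative tried and with each library left out. Those 4 were P2ry12, Gpr34, Cd68 and Ctss. Choroid plexus markers in the saline libraries ran from 26.6 to 2396 CPM in vHPC and from 25.0 to 3023 CPM in VS, and border macrophage markers from 5.18 to 9.13 CPM and from 2.56 to 5.80 CPM. Their part in the regional differences was not tested.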

How the data were processed

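Poly(A)-selected RNA from 5 brain regions was sequenced in 62 libraries. Per the labels and the methods of the study, the authors used cutadapt 5.0 for trimming, STAR 2.7.10a for alignment to GRCm39 and featureCounts 2.0.6 to count reads per gene, so that the deposited values are raw counts per gene, not normalized. All libraries were counted with the setting for reversed strand, although the kit of CTX and dHPC keeps no strand, and multi-mapping and overlapping reads were kept, which can share reads between near-identical or overlapping genes. Transcript-level tables were not used here.

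Counts were tested with edgeR 4.0.16 (R 4.3.3; TMM scaling, quasi-likelihood F test) after dropping genes that did not reach 5 counts in 2 or more libraries of any group, and p-values were adjusted by Benjamini-Hochberg over all genes tested (false discovery rate threshold 0.1). Standard errors were taken from the F statistic, and intervals cover 95%. DESeq2 1.42.0, other scalings and filters, libraries left out and replicate blocks were the alternatives. CPM used each comparison's own effective library sizes. DS chronic saline replicate 2, whose counts are truncated, was left out, so DS chronic rests on 2 saline libraries. Samples were grouped by region, paradigm and treatment from the labels. Mice were the replicates. The region tests had no term for the mouse, so regions of 1 mouse entered as separate libraries, and the mouse as a replicate block was an alternative. Scripts were tested on simulated data. Every member was accounted for by role; region tests named the 2 members with the largest rise and fall, and those picked after seeing values are marked in the text. Members and lists were chosen with earlier results of these data known. Marker and pathway lists were counted only. Total counts per library set the precision, which for the cytokines was at the floor; counts of reads cover counting error only. Promoter sequences came from RefSeq (GRCm38.p6), gene overlaps from GENCODE on GRCm39.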

Additional observations from a re-analysis of the deposited data

Results flagged for a closer look

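In 4 cases of a gene in a group of 4 libraries, a single library lay far from the other 3. Il6 in dHPC acute ethanol had a highest value of 0.0863 CPM and Ccl2 in the same group one of 0.0913 CPM, both a handful of reads. Tlr7 in DS chronic ethanol had a library at 6.54 CPM, and Irf7 in the same group one at 1.85 CPM. The rule flags about 1 in 20 cases when values are normally distributed, and 64 were looked at. Counts near 0, as for Il6 and Ccl2, do not follow that rate, so the 4 cases cannot be set against it. Genes of a group share the same libraries, so these cases are not independent.

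Myd88 in vHPC had a log2 fold change of 0.41 after acute and -0.64 after chronic ethanol, with every ethanol library above the saline libraries in the former and below them in the latter. The difference was tested with an interaction term (adjusted p = 0.289, edgeR) and was not called. Csf1r in vHPC had an interaction of -0.40 (adjusted p = 0.301 with edgeR, 0.0740 with DESeq2), so its call depended on the tool.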

How the results depend on the processing

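No member was called for ethanol in any of the 10 comparisons under any alternative, with the truncated library put back (DS chronic) or with any library left out (0 to 0 calls). The interaction tests had 0 calls throughout, except 1 in vHPC with DESeq2. Between regions, calls of members with each library left out ranged from 12 to 20 for dHPC against CTX, 10 to 14 for vHPC against VS, 5 to 8 for vHPC against DS (5 without DS acute saline replicate 4, without vHPC chronic saline replicate 6 and without DS chronic saline replicate 6) and 0 to 1 for DS against VS (0 without DS chronic saline replicate 6). With at least 10 counts in every sample, DS against VS gave 0 calls. No result reversed. The cause of these changes was not tested. The region leave-one-out fits, the summed CPM under DESeq2 size factors and the values of the truncated library on intact chromosomes were chosen after seeing the data.

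With the mouse as a replicate block, which pairs regions of the same animal, 15 members were called for dHPC against CTX, 10 for vHPC against VS, 5 for vHPC against DS and 2 for DS against VS. In the ethanol comparisons, saline and ethanol mice shared only a replicate number (correlations of deviations from -0.27 to 0.32), and with that number as a replicate block there were 0 calls in CTX acute, dHPC acute, CTX chronic and the CTX interaction; the other comparisons shared fewer than 2 numbers. Depth limits the TLRs, Irf7 and above all the cytokines.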
